A study of Rattus norvegicus with 12 samples.

Results

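Heat shock proteins and cytosolic chaperones were followed as a list of 37 genes, chosen by the gene symbol that the array platform gives each probe. Of the 37 genes, 30 were named on the array, by 31 probes, out of 13337 named genes in all. Expression was measured on 12 rat arrays of 1 colour, 1 array per sample, in material of the BDX strain. Untreated EC were cells of the aorta labelled as endothelial, starved overnight and then held for 24 hours with 2% serum. EC with AS exosomes and EC with AS-Tspan8 exosomes were treated likewise, with 10 µg/ml of exosomes added. AS cells were a parental rat pancreatic carcinoma line, and AS-Tspan8 cells were a derivative of it with stable expression of the tetraspanin Tspan8. AS exosomes and AS-Tspan8 exosomes were membrane vesicles from the serum-free medium of those lines after 36 hours of starvation. The 3 EC groups and both exosome groups had 2 arrays each, and each cell line had 1. The labels name the carcinoma derivative without saying whether it was 1 clone, and they do not say whether replicate arrays came from separate cultures. The p-values therefore measure the spread between these samples only, which may be technical.

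Chaperones bind unfolded or partly folded proteins, keep them from clumping and help them reach their folded form. HSP70 proteins take substrates from J-domain proteins and can pass them through cochaperones to HSP90, while small heat shock proteins hold unfolded substrates without using ATP. The CCT ring, fed in part by prefoldin, folds actin and tubulin, and the HSP60 and HSP10 pair does a similar task in mitochondria. Many of these genes are switched on by heat shock factor 1, which binds repeats of the 5-base unit NGAAN, called heat shock elements, before their start sites.

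Summed signal per array was 10383650 to 12705558 in EC, 13714493 in AS cells, 21955880 in AS-Tspan8 cells and 2390577 to 2924133 in exosomes. Probes detected per array, at a detection p-value under 0.01, numbered 8563 to 8923 in EC, 9269 and 9389 in the carcinoma lines and 2104 to 3604 in exosomes. In bulk samples, fewer cells of a type and less RNA per cell cannot be told apart. The EC label was set against marker genes. Of 12 endothelial markers named on the array, 3 (Egfl7, Ramp2 and Clec14a) were detected on all 6 EC arrays. Another 8 were detected on none of them, among them Cdh5, the adhesion protein of endothelial junctions, and Vwf, the von Willebrand clotting factor. Of 10 fibroblast markers, 9 were detected on all 6 EC arrays, and the summed fibroblast signal was 64421 to 79007 in EC against 743 and 1135 in the carcinoma cells. The name EC is kept below as the label. Tspan8 signal was 75.1 in AS cells, where it was not detected, and 2036 in AS-Tspan8 cells, where it was.

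The promoters of the chaperone genes were searched for heat shock elements, since heat shock factor 1 acts through these sites. The windows are RefSeq sequence of the rat build GRCr8, from 250 bases before to 50 after a start site, and exist for 30 of the 37 genes. The motif of 3 units, GAANNTTC followed by NNGAA and read on both strands, occurred in 6 of these 30 windows (20%) against 267 of 33469 windows of all genes (0.798%). The motif GAANNTTC, 2 units and its own reverse complement, is contained in the longer motif and occurred in 12 of the 30 windows (40%) against 2875 of all (8.59%). The 6 genes with the 3-unit motif are shown because they carry the most complete match, with the match in capitals, 5′ to 3′ on the gene's strand. They encode the constitutive HSP70 (Hspa8), HSP110 (Hsph1), a J-domain partner of HSP70 (Dnaja1), a CCT subunit (Cct4), HSP60 (Hspd1) and HSP10 (Hspe1).
Hspa8, chr8:50080293-50080479, plus strand: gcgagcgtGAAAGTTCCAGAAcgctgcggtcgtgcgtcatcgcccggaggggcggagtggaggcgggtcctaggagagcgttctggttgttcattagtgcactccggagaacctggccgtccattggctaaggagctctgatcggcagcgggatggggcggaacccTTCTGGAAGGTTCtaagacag
Hsph1, chr12:10427324-10427352, plus strand: gccgcagaTTCTGGAAAGTTCtcctcagt
Dnaja1, chr5:60638405-60638433, plus strand: gccgggcgGAACTTTCCAGAAcgctcggt
Cct4, chr14:101193074-101193102, plus strand: gcgtcgctTTCTGGAAGGTTCgtggaggc
Hspd1, chr9:64084256-64084285, minus strand: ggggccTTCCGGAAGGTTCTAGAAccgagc
Hspe1, chr9:64084256-64084285, plus strand: gctcggTTCTAGAACCTTCCGGAAggcccc

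The last pair is 1 stretch of DNA read from both strands, and it is counted once for each gene in the share of windows above. Hspd1 and Hspe1, which encode the ring and the lid of the mitochondrial chaperonin, lie head to head, with 290 bases between the start sites of their windows. The windows share 211 bases, and both overlapping 3-unit matches lie in the shared part, at position -65 and -60 for Hspe1 and -242 and -237 for Hspd1, counting the start base as 0. RefSeq's gene table puts the outer edge of Hspd1 295 bases beyond the start site used here, so a longer form would begin on the other side of the motif. Over all 30 windows the start site lay at the gene's edge in 18 and inside the gene in 12.

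The genes with only the 2-unit motif included Bag3, a cochaperone that links HSP70 to small heat shock proteins, and the small heat shock proteins Hspb1 and Hspb8. Their matches are printed in the same way.
Bag3, chr1:192533320-192533343, plus strand: tgggaccaGAAGTTTCtagccggc
Hspb1, chr12:26432395-26432438, minus strand: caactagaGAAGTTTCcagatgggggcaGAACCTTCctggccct
Hspb8, chr12:45837277-45837300, plus strand: agccaggaGAAGTTTCtaggcgcg
The other 3 with only the 2-unit motif were Dnajb1, Fkbp4 and Hspa9. The start sites used for Hspb8 and Hspa9 lay 1409 and 4560 bases inside the gene, so their matches do not lie before the gene's outer edge. A match is a description of these letters, and binding was not measured.

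**Figure D1:**
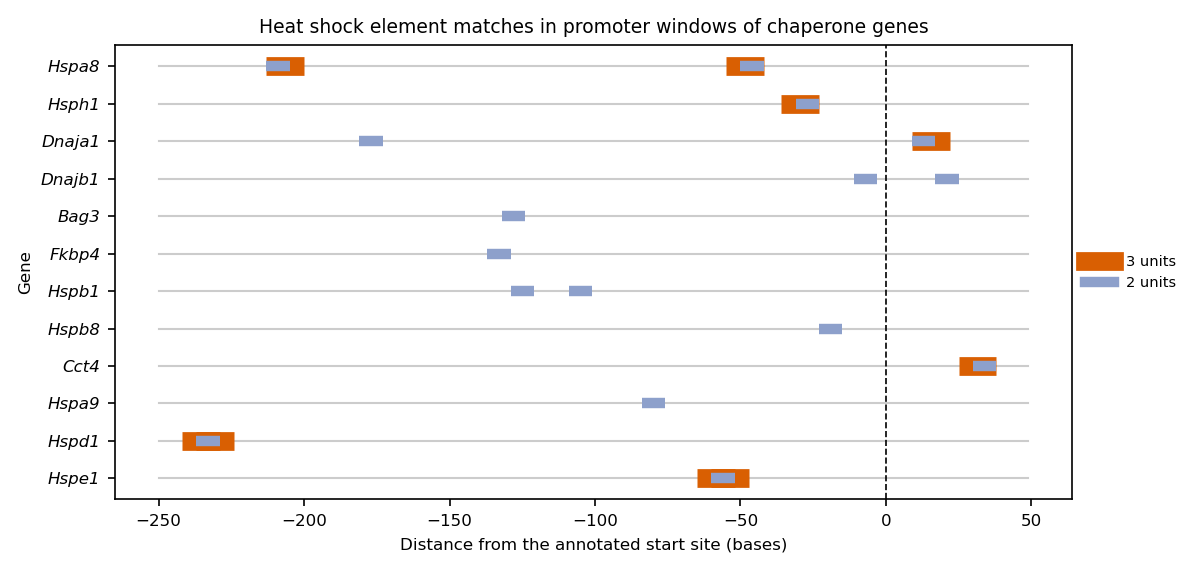
Heat shock element matches along the promoter windows of the 12 chaperone genes that hold one; the horizontal axis is the distance in bases from the annotated start site (dashed line) and each grey line is 1 window from 250 bases before to 50 after it. Wide orange bars are 3-unit matches and narrow blue bars 2-unit matches. The 3-unit matches of Hspa8, Hsph1, Hspd1 and Hspe1 lie before the start, and those of Dnaja1 and Cct4 lie after it.

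Every listed gene can be accounted for by its detection. Hspa8, Fkbp4, Ptges3, Cct8, Pfdn2, Pfdn4 and Hsf1, the heat shock factor itself, have no probe named for them and were not analysed here. Hspa1b, Hsph1, Hsp90ab1 and Ahsa1 had probes that were detected on none of the 12 arrays. These encode the inducible HSP70, HSP110, the constitutive HSP90 and an activator of the HSP90 ATPase. For all of them, absence of the transcript and a probe that fails to read it cannot be told apart here. The Hspa1b probe read 61.0 and 73.0 in untreated EC, 64.05 to 78.57 in EC with exosomes, 67.5 and 78.3 in the carcinoma lines and 73.9 to 83.6 in exosomes. Both Hsp90ab1 probes, 1 at 58.6 to 95.3 and the other at 51.7 to 71.1, likewise stayed within undetected signal on every array. Hspa1b has a near-identical neighbour, Hspa1a, which the array does not name, so its probe is uncertain between the 2 copies in any case.

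The other 26 genes were detected on all 6 EC arrays, which is 86.7% of the 30 against 45.4% of all named genes. In the carcinoma lines 25 of the 30 were detected on both arrays (83.3% against 48.6% of named genes), the exception among the 26 being Hspb8. In exosomes the share was below that in cells and above that of all named genes. AS exosomes gave 12 of the 30 on both arrays (40% against 9.39%), with 12 on array 1 and 19 on array 2. AS-Tspan8 exosomes gave 8 on both (26.7% against 7.48%), with 12 and 8 on the arrays taken singly. The 8 genes detected on all 12 arrays were the J-domain genes Dnaja1 and Dnaja2, the cochaperones St13 and Cdc37, the CCT subunits Cct3 and Cct7, and the mitochondrial Hspa9 and Hspd1.

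**Figure D2:**
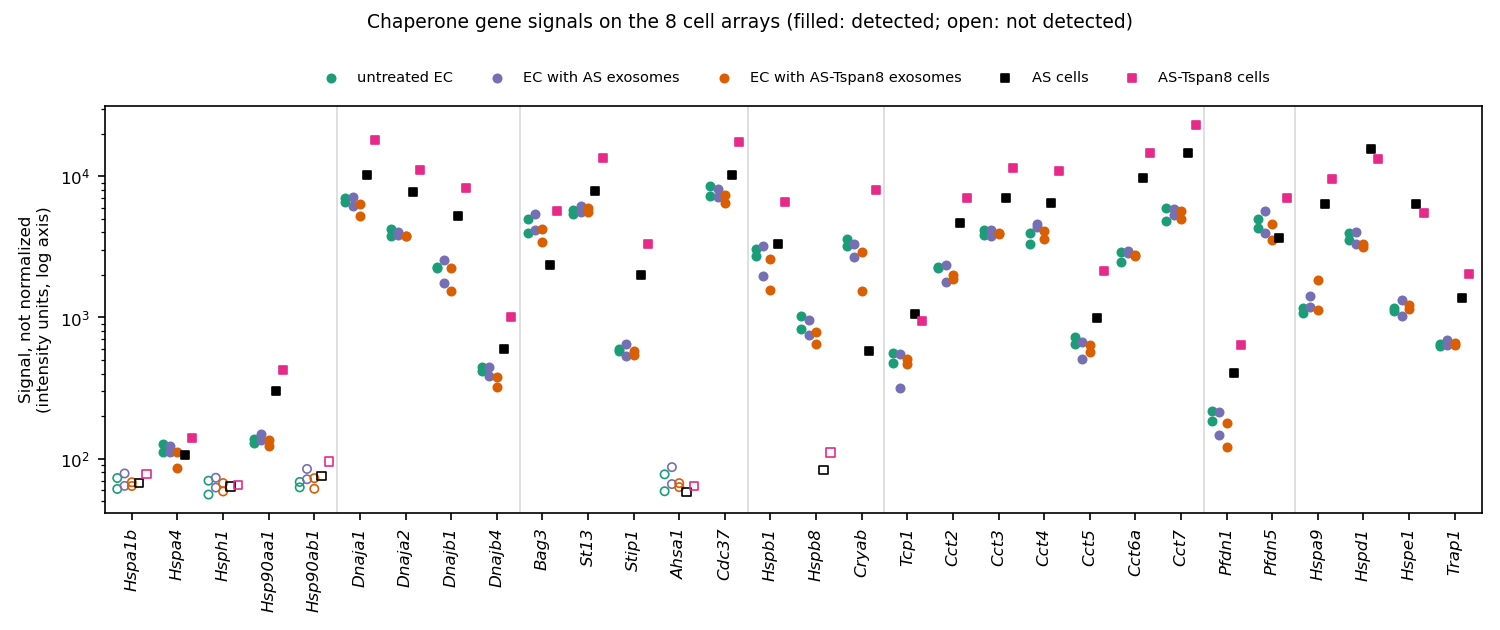
Signal of each named chaperone gene on the 8 cell arrays, on a log axis in intensity units before normalization; circles are EC (2 per group) and squares the carcinoma lines (1 per line), filled where detected and open where not. Signals are comparable within a gene and not between genes. Hspb8 was detected in EC only, the mitochondrial genes at the right were brighter in both carcinoma lines, and Cryab differed most between the lines.

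Carcinoma cells and untreated EC differed in many chaperone genes. Mitochondrial chaperones were higher in both lines, Hspb8 was lower in both, and Cryab was lower in AS cells only. After background correction and quantile normalization of the 8 cell arrays, 13 of the 26 chaperone genes tested rose and 4 fell in the mean of both carcinoma lines at limma's adjusted p under 0.05. Over all 9972 features tested 53.9% were called, 29.1% higher and 24.8% lower, so calls were frequent among all features as well. The median log2 difference was 0.51 over the chaperone genes and 0.01 over all features. The groups did not overlap for 22 of the 26 genes, against 78.9% of all features. Tissue, cell type and medium differed together between these groups and cannot be told apart, and the single arrays of the lines were assumed to vary like the EC arrays. Each line had its own mean in the fit, so the standard errors and p-values leave out the spread between the lines.

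All 4 mitochondrial chaperone genes rose in the carcinoma cells. Hspa9, the mitochondrial HSP70 that pulls proteins through the inner membrane, read 1080 and 1175 in untreated EC, 6358 in AS and 9552 in AS-Tspan8. Hspd1 read 3978 and 3514 in untreated EC, 15600 in AS and 13220 in AS-Tspan8. Hspe1, on the other side of the shared promoter, read 1158 and 1118, then 6334 and 5485. Both carcinoma arrays lay above both EC arrays for each of these genes. On the log2 scale the differences were 2.03 ± 0.31 (SE, adjusted p 0.00265 from limma) for Hspa9, 1.37 ± 0.17 (adjusted p 0.0012) for Hspd1 and 1.58 ± 0.18 (adjusted p 0.000825) for Hspe1. The mitochondrial HSP90, Trap1, rose less, from 627.3 and 650.6 to 1377 and 2037, a log2 difference of 0.56 ± 0.17 (adjusted p 0.0365).

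The subunits of the CCT ring were higher in the carcinoma cells for 7 of 7 measured, of which 4 passed the test. Cct6a read 2891 and 2454 in untreated EC against 9668 in AS and 14560 in AS-Tspan8, a log2 difference of 1.54 ± 0.17 (limma, adjusted p 0.000772). Cct7 read 4791 and 5924 against 14630 and 23100, a log2 difference of 1.41 ± 0.19 (limma, adjusted p 0.00173). Cct2 and Cct3 also rose, by 0.57 and 0.46 on the log2 scale. The values of Cct4, Cct5 and Tcp1 (0.50, 0.23 and 0.11) did not pass, although their proteins sit in the same ring. Of the prefoldin genes, whose products hand new actin and tubulin to the ring, Pfdn1 (0.76, limma adjusted p 0.136) did not pass and Pfdn5 fell by 0.63 (limma adjusted p 0.0283). The Pfdn5 call was lost without any 1 of the 4 arrays compared, and its sign turned to 0.12 (limma adjusted p 0.68) without scaling between arrays.

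Of the J-domain genes 3 of 4 rose in the carcinoma cells, as did Stip1. Dnajb1, the heat-inducible J-domain protein, read 2264 and 2239 in untreated EC and 5231 and 8312 in the lines, a log2 difference of 0.78 ± 0.21 (limma, adjusted p 0.0203). Dnaja1 and Dnaja2 rose by 0.51 each, and Dnajb4 did not pass (0.04, limma adjusted p 0.871). Stip1, which holds HSP70 and HSP90 together, read 576.2 and 598.5 in untreated EC and 2014 and 3330 in the lines. Both lines lay above both EC arrays, and the log2 difference was 1.35 ± 0.15 (limma, adjusted p 0.000821). Hsp90aa1, the inducible HSP90, rose from 137.6 and 128.5 to 302.3 and 426.7, a log2 difference of 1.13 ± 0.25 (limma, adjusted p 0.0106). St13 and Cdc37, cochaperones of HSP70 and of HSP90 with its kinase clients, gave 0.24 and 0.30 and did not pass, nor did Hspa4, an HSP110 family member, at a value of -0.67 (limma adjusted p 0.0698).

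Besides Pfdn5, the genes that fell were the small heat shock proteins Hspb8 and Cryab and their partner Bag3. Hspb8 read 826.3 and 1030 in untreated EC and 649.8 to 954.6 in EC with exosomes, and was not detected in AS cells (83.3) or AS-Tspan8 cells (110.6). Its signal was therefore at least 29-fold higher in untreated EC, taking for the carcinoma arrays the higher of the probe's own value and the lowest detected signal (limma adjusted p 1.53e-05). Bag3, whose protein forms a complex with that of Hspb8, read 3983 and 4999 in untreated EC, 2364 in AS and 5630 in AS-Tspan8 before normalization. After normalization it fell by 1.10 ± 0.18 on the log2 scale (limma, adjusted p 0.00345), with no overlap, and without scaling the value was -0.30 (limma adjusted p 0.299). Cryab, the alpha B crystallin, read 3226 and 3584 in untreated EC, 577.3 in the AS line and 8048 in AS-Tspan8, so the groups overlapped. The mean of both lines lay 1.49 ± 0.27 below untreated EC (limma, adjusted p 0.00484). Normalized values were 8.90 in AS and 11.98 in AS-Tspan8 cells, a spread that this SE leaves out, and 11.88 and 11.98 in untreated EC. Without the array of AS cells the Cryab value was 0.05. Hspb1, HSP27, gave -0.07 (limma adjusted p 0.835).

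The number of chaperone genes called depended on the arrays and the scaling. It was 10 without the first and 10 without the second untreated EC array, 9 without AS cells and 13 without AS-Tspan8 cells; each such fit leaves 1 array on that side. With arrays left unscaled the median over features moved to 0.78 and 83% of all calls were higher, and with scaling to the median of commonly detected probes it moved to -0.20 and 39.4% were higher, against 54% in the main setting. The chaperone median moved with it, to 1.20 and 0.22. Under both scalings Hspa9, Hspd1, Hspe1, Trap1, Cct6a, Cct7, Stip1 and Hsp90aa1 stayed called higher and Hspb8 lower, while the rise of Cct2, Cct3, Dnaja1, Dnaja2 and Dnajb1 did not pass on commonly detected probes (0.37, 0.19, 0.02, 0.24 and 0.59).

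**Figure D3:**
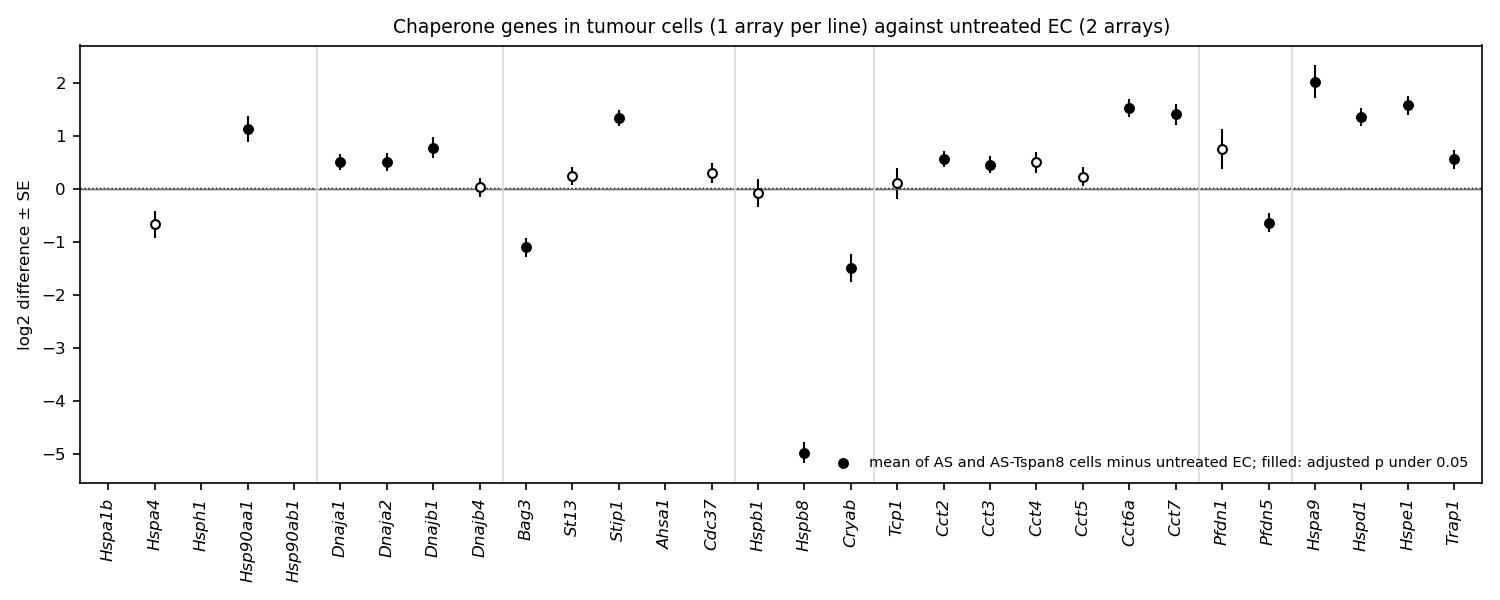
Log2 difference of the mean of AS and AS-Tspan8 cells (1 array each) from untreated EC (2 arrays) for each chaperone gene tested; bars are the standard errors of limma's fit, points are filled at adjusted p under 0.05, and the dotted line is the median of all features. The mitochondrial genes, Cct6a, Cct7, Stip1 and Hsp90aa1 lie above 1 or, for Trap1, at 0.56, and Hspb8 lies at -4.97. Genes with no point were not detected on enough arrays to be tested.

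Further genes of the chaperone network, 68 listed and 49 tested, gave 17 higher and 9 lower in the carcinoma cells at limma's adjusted p under 0.05. Of all 9972 features 29.1% were higher and 24.8% lower at that threshold. Hspa4l, an HSP110 family member known from testis, was not detected on any EC array (64.9 and 81.3 in untreated EC) and read 1131 in AS and 2420 in AS-Tspan8. That is at least 24.8-fold higher in the lines (limma adjusted p 7.66e-06). Dnajc9, a J-domain protein that also handles histones, and Hspa14, an HSP70 relative bound to ribosomes, rose by 1.65 and 1.42 on the log2 scale. Clu, the secreted chaperone clusterin, read 21110 and 18320 in untreated EC against 332.8 and 1815 in the lines, a log2 difference of -5.44 ± 0.19 (limma, adjusted p 1.13e-05). Hspb2 and Hspb7, small heat shock genes known from muscle, had log2 differences of -4.02 and -4.05, with detection in 1 of the lines each. Beside these genes, 9 of the 10 fibroblast markers were not detected in AS cells and 10 of 10 were not detected in AS-Tspan8 cells, with summed signals of 1135 and 743 against 72659 and 76931 in untreated EC. The part of the cells' make-up in the chaperone differences was not tested.

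Between the carcinoma lines there was 1 array each and no test. Of the 25 chaperone genes measured, 1 lay more than 1 above and 2 more than 1 below on the log2 scale in AS-Tspan8 cells, against 4.66% of all 9434 features (2.71% above and 1.95% below). Before normalization Cryab read 577.3 in AS and 8048 in AS-Tspan8, and after it Cryab was 7.75-fold higher in AS-Tspan8 cells, a log2 difference of 2.95. Tcp1, the founding CCT subunit, and Hspe1 had log2 differences of -1.10 and -1.02, followed by Hspd1 at -0.90 and Trap1 at -0.37. Below Cryab, the highest values were those of Bag3 (0.38), Cct5 (0.19) and Cct7 (0.17). The median was -0.12 over the chaperone genes and -0.02 over all features.

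The AS-Tspan8 array was the brighter of the pair in summed signal, as given above, and the comparison depended on the scaling. Without scaling the median of all features was 0.84 and 97.6% of the features past 1 were higher, against 58.2% in the main setting. Cryab (3.93) then lay past 1 together with Bag3 (1.27) and Cct5 (1.15), and Hspd1, Hspe1 and Tcp1, at -0.24, -0.21 and -0.19, were the 3 chaperone genes below 0. On commonly detected probes and in the authors' processed table Cryab (3.03 and 2.87) stayed above 1 and Hspe1, Tcp1 and Hspd1 lay below -1. Of the other network genes tested, Clu alone lay past 1 in the main setting, 2.92-fold higher in AS-Tspan8 cells after normalization.

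Most chaperone genes gave less signal in exosomes than in cells of the same line. The exosomes came from starved cultures in serum-free medium, while the labels give no starvation for the arrays of AS and AS-Tspan8 cells. Those arrays may therefore not show the cells that released the exosomes. Starvation may differ together with the kind of sample, and its part was not tested. Across both lines 24 of the 25 chaperone genes tested were lower in exosomes than in cells of the same line, and 14 fell and 1 was called higher at limma's adjusted p under 0.05. Of all 9434 features 56.9% were called, 16% higher and 41% lower. The median log2 difference was -1.89 over the chaperone genes and -1.22 over all features. The groups did not overlap for 21 of the 25, against 75.1% of all features. Quantile normalization gives exosome and cell arrays the same distribution although they differ in detected probes, so signals before normalization are given first.

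Hspa9 and Hspe1 were the mitochondrial genes whose normalized difference did not pass, while Hspd1 and Trap1 fell. Hspa9 read 308.7 and 587.9 in AS exosomes and 202.0 and 157.9 in AS-Tspan8 exosomes, against 6358 and 9552 in the cells. Hspd1 read 278.7, 514.8, 154.6 and 119.5 in the same order, against 15600 and 13220. All exosome signals lay below the cell signals before normalization, and the AS exosome signals lay above the AS-Tspan8 exosome signals for both genes. The normalized differences were -0.13 ± 0.25 (limma, adjusted p 0.655) for Hspa9 and -1.38 ± 0.28 (limma, adjusted p 0.0162) for Hspd1. On commonly detected probes Hspa9 gave -1.22 (limma, adjusted p 0.00796), where its value passed. Hspe1 gave -0.85 (limma adjusted p 0.158), and Trap1, detected on no exosome array, was at least 1.25-fold lower (limma adjusted p 0.0281).

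All 4 J-domain genes fell in exosomes. Dnaja1 read 160.4 and 300.9 in AS exosomes and 116.7 and 107.2 in AS-Tspan8 exosomes, against 10240 and 18170 in the cells, a normalized log2 difference of -2.08 ± 0.36 (limma, adjusted p 0.0105). Dnaja2 fell by 1.26, and Dnajb1, detected on 1 of 4 exosome arrays, by 2.95. Dnajb4 was detected on no exosome array, at 59.6 to 72.2 against 595.0 and 1014 in the cells, and its normalized bound gave no fold above 1. Of the CCT genes 5 of 7 fell. Cct3, detected on all 4 exosome arrays at 122.0 to 249.5, fell by 1.24 ± 0.21 (limma, adjusted p 0.00965). Cct7 and Cct6a fell by 2.16 and 2.36, and Cct2 gave -2.25 (limma adjusted p 0.0304). Cct5, detected on no exosome array, was at least 1.08-fold lower, and Cct4 (-1.67, limma adjusted p 0.0693) and Tcp1 (-1.16, limma adjusted p 0.347) did not pass.

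Among the cochaperones, St13 fell by 1.33 and Stip1 by 4.00 on the normalized log2 scale. Stip1 read 80.9, 112.0, 74.7 and 71.2 in the exosomes and was detected on the second AS exosome array, against 2014 and 3330 in the cells. Cdc37 (-1.64, limma adjusted p 0.0532) and Bag3 (-1.82, limma adjusted p 0.093) did not pass. Neither small heat shock gene tested passed: Hspb1 gave -3.79 ± 1.80 (limma adjusted p 0.129) and Cryab -3.53 ± 1.54 (limma adjusted p 0.109). Both were detected on 1 exosome array, the second of AS, at 224.6 and 104.9. Hsp90aa1, at 67.3 to 78.4, was detected on no exosome array. Its normalized value of -1.89 was called lower (limma adjusted p 0.0484), its bound gave no fold above 1, and on commonly detected probes the value was 0.53.

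Hspa4 was the 1 chaperone gene called higher in exosomes, and the call depended on the scaling. Its signal was 106.1 and 139.8 in the cells and 108.8, 103.5, 98.6 and 92.5 in the exosomes, with detection on 1 of the 4 exosome arrays. The signals overlapped before normalization. The normalized difference was 3.35 ± 0.33 (limma, adjusted p 0.00243), and without scaling it was -0.66 (limma adjusted p 0.129).

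The number and direction of calls over the whole array moved with the scaling. Without scaling 24 of the 25 chaperone genes and 8156 of 9434 features fell, with a median of -3.63 over all features and 5.04% of calls higher. On commonly detected probes 20 of the 25 and 2753 of 9434 features fell. Hspa4 was called higher there, and Hsp90aa1 and Pfdn1 (0.53 and 0.15) turned positive. The median over all features was 0.39 and 59% of calls were higher, against 28.1% in the main setting. With no filter on detection 8 of 30 and 3282 of 22067 features fell, and 38.3% of all calls were higher. The 8 genes detected on all 12 arrays were lower in exosomes in the main setting and on commonly detected probes, where they lay between -3.30 for Cct7 and -1.22 for Hspa9. Without the first or second AS-Tspan8 exosome array 7 or 6 of 25 chaperone genes were called, beside 3622 of 9324 or 3693 of 9302 features. Without the first or second AS exosome array 10 or 19 of 25 were called, beside 4073 of 9340 or 6943 of 9412 features. Leaving out a cell array leaves 1 for both lines and 20 chaperone genes to test. Their median was -2.24 without AS cells and -1.4 without AS-Tspan8 cells, beside -0.56 and -0.11 over all features.

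**Figure D4:**
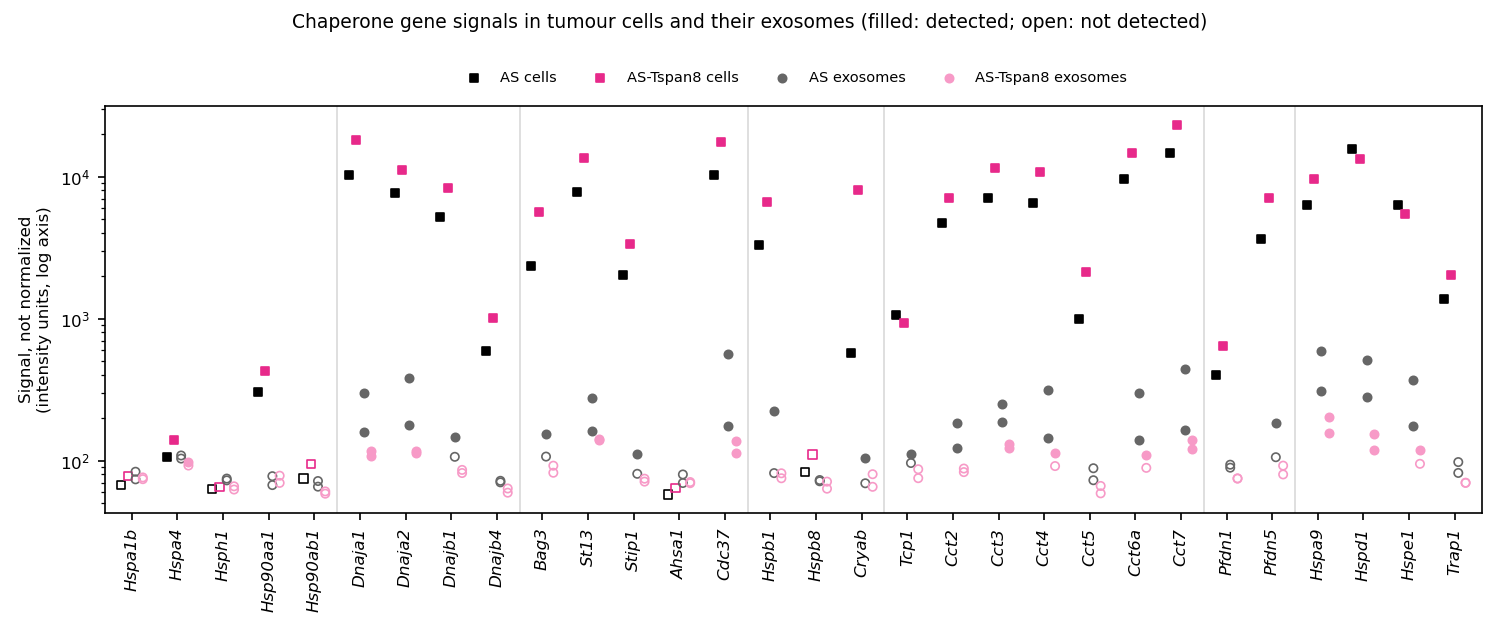
Signal of each named chaperone gene in carcinoma cells (squares, 1 array per line) and exosomes (circles, 2 arrays per kind), on a log axis in intensity units before normalization, filled where detected and open where not. Exosome signals reached 587.9 for Hspa9 and cell signals 23100 for Cct7, and the second AS exosome array lay above the other 3 exosome arrays for many genes.

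Of the other network genes, 47 were tested between exosomes and cells, of which 2 were called higher and 17 fell. Over all 9434 features 16% were called higher and 41% lower. Serpinh1, the collagen chaperone HSP47, read 249.7, 179.2, 190.7 and 176.9 in exosomes and 143.4 and 219.9 in the cells, with a normalized difference of 4.83 (limma, adjusted p 0.00155). Its raw signals overlapped, as for Hspa4. Dnajb6, a J-domain protein that keeps polyglutamine proteins soluble, was called higher at 0.79, while its signals before normalization were 2297 and 3432 in the cells and 141.9 to 256.3 in the exosomes. Tomm34, Dnajc5 and Bag2, the genes of lowest p among those that fell, were detected on no exosome array.

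No chaperone gene passed the test between AS-Tspan8 exosomes and AS exosomes. No feature of 9434 was called (0%) by limma at adjusted p under 0.05, with 618 features and 0 chaperone genes at an unadjusted p under 0.05. The normalized value was lower in AS-Tspan8 exosomes for 22 of the 25 genes, with a median of -1.02 against -0.09 over all features. The groups did not overlap for 10 of the 25, 9 of them lower, against 40.1% of all features and 24.7% lower. Among the values of lowest p, Cct2 was detected in AS exosomes alone and was at least 1.31-fold lower in AS-Tspan8 exosomes (limma adjusted p 0.759), and Hspd1 gave -0.90. Hspa4 (0.78) and St13 (0.17) lay above 0 in the main setting, while with arrays left unscaled they gave -0.16 and -0.75 and 25 of 25 genes lay below 0, beside a median of -0.25 over all features. Pfdn1 and Hsp90aa1 were detected in neither kind. Without the second AS exosome array, on which 19 of the 30 genes were detected, the median was -0.17, and on commonly detected probes it was -0.19 beside 0.69 over all features. The test of whether the exosome-to-cell difference itself differed between the lines called no feature (0%), with 305 features and 0 chaperone genes at an unadjusted p under 0.05. Cryab gave -3.59 ± 3.03 there (limma adjusted p 0.955), but as it was detected on 1 of the 4 exosome arrays, its exosome side was mostly not measured. Without scaling that test called 4544 of 9434 features, 4480 of them negative, beside a median of -1.25 over all features. Of the 25 chaperone genes it called 4 (Cct5, Cryab, Dnajb4 and Pfdn1), each with a negative value. Of these, Cct5, Dnajb4 and Pfdn1 were detected in neither kind of exosome.

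EC kept with exosomes showed no change in chaperone mRNA that passed the test. In each of the 3 comparisons among EC groups limma called 0 of 9025 features (0%) and 0 of the 26 chaperone genes at adjusted p under 0.05, and all adjusted p were 1. At an unadjusted p under 0.05 there were 62 features for AS exosomes against untreated EC, 116 for AS-Tspan8 exosomes against untreated EC and 51 between the exosome kinds, with 0 chaperone genes in each. Both comparisons with untreated EC share its 2 arrays, and their values are given side by side. With AS exosomes 10 of the 26 genes were above and 16 below untreated EC, with a median log2 difference of -0.01 and a range from -0.35 to 0.32. With AS-Tspan8 exosomes 13 were above and 13 below, with a median of 0.00032 and a range from -0.54 to 0.53. The groups did not overlap for 5 and 6 of the 26 genes, against 23.2% and 25.1% of all features.

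The 3 small heat shock genes had negative values with both kinds of exosome. Cryab read 3226 and 3584 in untreated EC, 3340 and 2670 in EC with AS exosomes and 2928 and 1546 in EC with AS-Tspan8 exosomes, and after normalization both treated groups lay below untreated EC. Its log2 differences were -0.17 ± 0.27 and -0.54 ± 0.27 (limma, adjusted p 1 for both, unadjusted p 0.553 and 0.0904). Hspb1 read 3032 and 2725, then 3183 and 1974, then 2600 and 1565, with log2 differences of -0.18 ± 0.28 and -0.37 ± 0.28. Hspb8 gave -0.10 and -0.23. In treated EC the lower value of Cryab and of Hspb1 lay on the array numbered 2. With AS-Tspan8 exosomes Cryab gave -0.09 within number 1 and -0.99 within number 2, and Hspb1 gave -0.17 and -0.58. Without the second array of EC with AS-Tspan8 exosomes Cryab gave -0.14 and Hspb1 -0.07. On that array 8 of the 10 fibroblast markers had their lowest signal, before normalization, of the 6 EC arrays. It was also the dimmest of the 6, with a summed signal of 10383650 against 11097935 to 12705558 on the others. Col1a2, a collagen chain of fibroblasts, read 14680 there against 23630 to 27370 on the other 5 EC arrays. The summed signal of 3 smooth muscle markers, of which Tagln alone was detected in EC, was 524 against 1006 to 1218. The part of these markers in the values of Cryab and Hspb1 was not tested.

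Hspa9 was the chaperone gene with the highest value after AS-Tspan8 exosomes. It read 1080 and 1175 in untreated EC, 1188 and 1410 in EC with AS exosomes and 1128 and 1836 in EC with AS-Tspan8 exosomes, and normalized values of both treated groups lay above untreated EC. The log2 differences were 0.22 ± 0.31 and 0.53 ± 0.31 (limma, adjusted p 1, unadjusted p 0.516 and 0.14). Within number 1 they were 0.00 and 0.07, and within number 2 they were 0.43 and 0.98. Without the second array of EC with AS-Tspan8 exosomes, on which the fibroblast markers and the summed signal were low, the value was 0.08. Cct4 gave 0.32 and 0.26, St13 0.10 and 0.23, and Cct6a 0.15 and 0.21. The lowest values with AS exosomes were those of Tcp1 (-0.35), Pfdn1 (-0.27) and Cct5 (-0.25), and Tcp1 gave 0.07 with AS-Tspan8 exosomes. With AS-Tspan8 exosomes Pfdn1 gave -0.47 and Hspa4 -0.38. Pfdn1, at a signal of 121.4 to 218.4 in EC, was below untreated EC within both numbers. It gave -0.35 and -0.19 with AS exosomes and -0.46 and -0.48 with AS-Tspan8 exosomes. Hspa4, Hspb1 and Cryab were likewise below within both numbers with both kinds, while St13 and Hspa9 were above. With the replicate number as a block the Pfdn1 value with AS-Tspan8 exosomes was -0.47 ± 0.15 (limma, adjusted p 0.806, unadjusted p 0.017). In that fit 482 of 9025 features and 1 of the 26 chaperone genes had an unadjusted p under 0.05.

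Dnajb1 and Bag3, which with Hspa1b are among the genes that rise first in a heat shock response, gave values near 0 in both comparisons. Bag3 read 3983 and 4999 in untreated EC, 5438 and 4150 in EC with AS exosomes and 4254 and 3402 in EC with AS-Tspan8 exosomes, with log2 differences of 0.09 ± 0.19 and -0.09 ± 0.19. Dnajb1 gave -0.07 ± 0.22 and -0.14 ± 0.22. Of the genes with the 3-unit promoter motif that were measured, Dnaja1 gave -0.01 and -0.09, Hspd1 0.00 and -0.03 and Hspe1 0.05 and 0.21, beside the values of Cct4 above. The standard errors of the 26 chaperone genes ran from 0.156 to 0.36 without the replicate number in the fit and from 0.143 to 0.25 with it as a block.

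Between EC with AS-Tspan8 exosomes and EC with AS exosomes 13 chaperone genes were above and 13 below, with a median of 0.02, and 3 of 26 did not overlap, against 17.7% of all features. Tcp1 (0.42), Hspa9 (0.31) and Cct5 (0.22) were at the top and Cryab (-0.37), Hspa4 (-0.21) and Bag3 (-0.18) at the bottom by lowest p. The replicate number moved with the chaperone values: with AS-Tspan8 exosomes against untreated EC the chaperone median was -0.05 within number 1 and 0.11 within number 2. With arrays left unscaled, the median over all features was -0.13 with AS-Tspan8 exosomes against untreated EC, where 20 of the 26 chaperone genes were then below 0, and -0.10 between the exosome kinds, where 22 were. Of the other network genes, 48 were tested in EC and 0 were called.

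**Figure D5:**
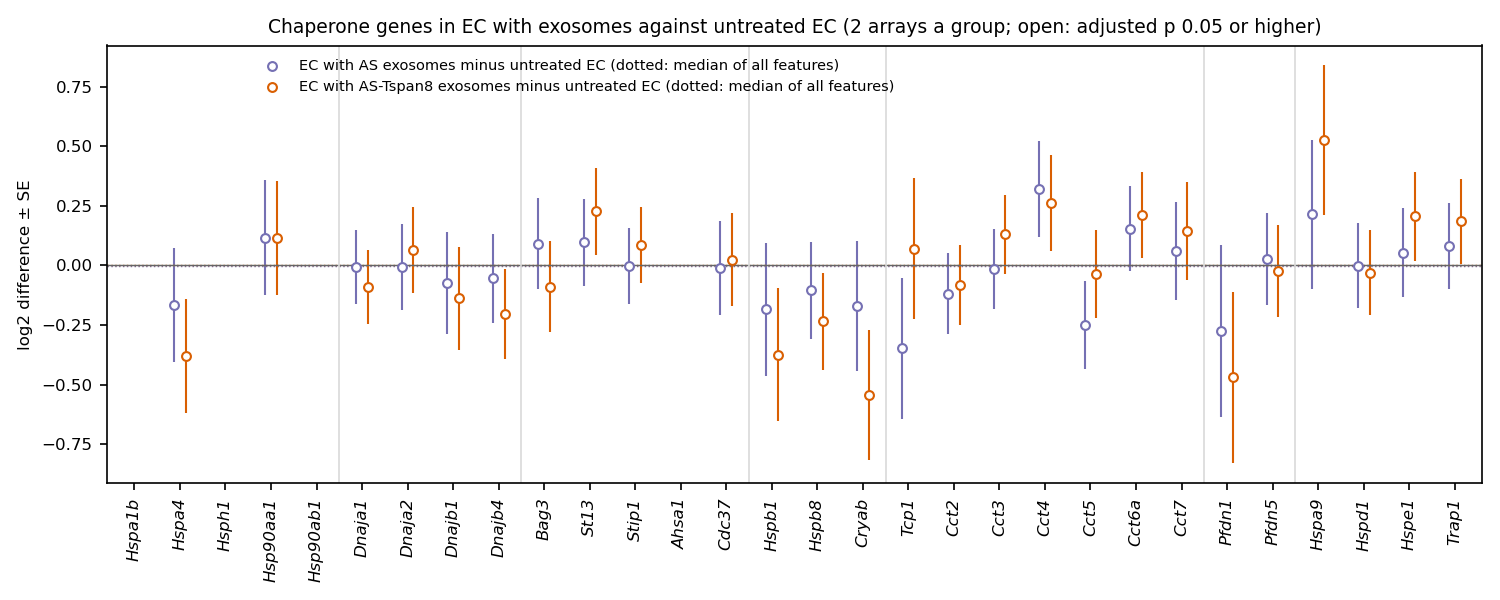
Log2 difference of EC with AS exosomes (purple) and EC with AS-Tspan8 exosomes (orange) from untreated EC, 2 arrays per group, for each chaperone gene tested; bars are the standard errors of limma's fit and all points are open because no adjusted p was under 0.05. Values run from -0.54 for Cryab to 0.53 for Hspa9, both with AS-Tspan8 exosomes.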

How the data were processed

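Cy3-labelled RNA was read on 1-colour Illumina rat arrays, per the labels. Per the file headers, the deposited table pairs each probe's intensity, before normalization, with its p-value of detection. The authors' processed intensities, also deposited, are linear, with medians between 78.08 and 78.56 on the arrays; no source used here states how they were made, and they served as an alternative. The platform annotation gave 1 gene symbol to 13793 of 22523 probes, and 8730 were unnamed here.

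Background was removed by normexp from the detection p-values, followed by quantile normalization and log2 (neqc, offset 16, limma 3.58.1, R 4.3.3). This was done separately for the 6 EC arrays, the 6 of carcinoma cells and exosomes, and the 8 of cells. Kept probes were detected (p under 0.01) on 2 or more arrays, with the brightest per named gene, which left 9025, 9434 and 9972 features. Differences were tested with limma (lmFit and eBayes, Benjamini-Hochberg over all features, called at adjusted p under 0.05). For exosomes against cells the line was an added factor. The number of arrays limits the precision. Where no array of a group detected a gene, the fold is a lower bound from normalized values. Replicate numbers come from the labels. Deviations of same-numbered EC arrays correlated at 0.495, 0.375 and 0.555, so these arrays may be pairs, while exosome arrays gave -0.334. The values printed come from the fits without the number as a block, unless the block is named. In EC these fits leave a possible pairing out, and the counts with the block are given below. Chaperone genes were named by difference and p, up to 6 per direction where called and 3 where none was, with fixed genes added. A search for genes patterned like the inducible HSP70 was not made because its probe was not detected. The chaperone list, the other gene lists and the settings were chosen with earlier results of these data known.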

Additional observations from a re-analysis of the deposited data

How the results depend on the processing

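The limits are set by 2 arrays per group, 1 per carcinoma line, and few detected probes in exosomes. For exosomes against cells, 5371 features and 15 chaperone genes were called. Without scaling between arrays this became 8589 features and 24 genes, with a chaperone median of -6.48 and Hspa4 at -0.66. With no filter on detection 9 chaperone genes were called. With 1 array left out the counts ran from 646 to 6943 features and from 0 to 19 chaperone genes. The interaction and the comparison of exosome kinds called 218 and 304 features on commonly detected probes. Without scaling the interaction called 4544 of 9434 features and 4 of 25 chaperone genes. Each of these counts was 0 in the main setting. For AS-Tspan8 against AS cells, 440 features lay past 1, against 3318 without scaling, 679 on commonly detected probes, 291 in the authors' processed table and 121 without background correction. For carcinoma cells against untreated EC the chaperone median of 0.51 became 1.20 without scaling and 0.22 on commonly detected probes, and Pfdn5 turned to 0.12 without scaling. With 1 array left out 3566 to 4012 features and 9 to 13 chaperone genes were called, and Cryab gave values from -3.07 without AS-Tspan8 cells to 0.05 without AS cells. The cause was not tested.

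With the replicate number as a block, 0 features were called in each EC comparison and between the exosome kinds, and 6295 features and 19 chaperone genes for carcinoma cells against untreated EC, so the pairing moved no count of calls at adjusted p by over 1.5 times. At an unadjusted p under 0.05 the block moved the counts from 62 to 166 with AS exosomes, from 116 to 482 with AS-Tspan8 exosomes and from 51 to 188 between the treated EC, with 0, 1 (Pfdn1) and 0 chaperone genes, and from 618 to 330 between the exosome kinds. With the numbers of the exosome arrays crossed, an alternative chosen after seeing the data, 0 features were called and 1121 had an unadjusted p under 0.05. For the genes the naming rule took from those called for exosomes against cells (up to 6 a direction) and for carcinoma cells against untreated EC, and for Cryab, Hspe1 and Tcp1 between the lines, 226 values were recomputed under the alternatives. Of these 195 kept direction and side of the threshold, 28 lost the call and 3 turned sign.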
